A study of Mus musculus with 9 samples.

Results

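Protamines, transition proteins and the other genes of spermatid chromatin were followed in testes of mice with and without profilin 3 (Pfn3), a testis-specific actin-binding protein. The 10 genes were chosen by name from the 38674 genes of the deposited table: the protamine genes Prm1, Prm2 and Prm3, the transition protein genes Tnp1 and Tnp2, the spermatid linker histone genes Hils1 and H1fnt, the testis histone genes Hist1h1t and Hist1h2ba, and Brdt, which encodes a bromodomain protein. RNA came from testicular tissue of C57BL/6 males without the tunica albuginea, with 3 wild-type animals (Pfn3+/+, WT), 3 heterozygous animals (Pfn3+/–, Het) and 3 homozygous Pfn3-deficient animals (Pfn3–/–, KO). The study made several Pfn3 deletion lines with CRISPR/Cas9, each a frameshift in the germline and not restricted to a cell type. In their account of the sperm analysis, the methods give an age of 2 to 6 months for the males of every experiment, and they do not say which line the sequenced animals carried. The 9 libraries were QuantSeq 3′ libraries, which sample the 3′ ends of polyadenylated RNA.

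In round and elongating spermatids the histones of the genome are taken out and the DNA is packed anew. Testis variants of the histones and acetylation of histone H4, which BRDT binds, open the nucleosomes, the transition proteins take their place for a short time, and the protamines then condense the DNA into the sperm head. Prm1, Prm2, Tnp1 and Tnp2 are transcribed in round spermatids, and their mRNAs are stored and translated later in elongating spermatids. The comparison of the genotypes asked whether the transcripts of this program differed in level, and whether they kept their proportions to each other, in testes that lack Pfn3.

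Values are normalized counts, that is, reads counted on a gene divided by 1 size factor per library. Each library had 3375546 to 4287335 reads on genes. The libraries were not equally complete. Of 14865 genes that reached 10 normalized counts in 3 or more libraries, 437 (2.94%) were more than 8-fold lower in WT 1 than in every other library, and 168 were so in Het 1, against 10 to 55 in the remaining 7 libraries. Results are therefore given also without WT 1, and without KO 2, which had the lowest values of its group for 8 of 8 well-measured chromatin genes. Pfn3 itself had 592, 383 and 373 normalized counts in WT, 136, 339 and 326 in Het and 74.7, 215 and 279 in KO, so the KO animals lay below the WT animals but kept transcript reads. In whole testis RNA, fewer cells of a type and less RNA per cell cannot be told apart.

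Tnp2, Prm3, Prm2 and Prm1 lie side by side in a cluster on the minus strand of chromosome 16 (GRCm38), which spans 17904 bases. Tnp2 (chr16:10787936-10788660) is followed after 1844 bases by Prm3 (chr16:10790505-10790914), after a further 465 bases by Prm2 (chr16:10791380-10796134) and after 191 bases by Prm1 (chr16:10796326-10805839). Tnp1 lies apart, on the minus strand of chromosome 1 (chr1:73015074-73015909). The bases from 120 to 1 before the RefSeq start site of these 5 genes (GRCm38.p6, minus strand) are shown because these genes are transcribed in the same cells and the report turns on their proportions. Capitals mark the letters TGANNTCA, the form of the site bound by CREM and related factors, the letters TATAAA on either strand, and the letters TATA, which overlap TATAAA where both occur.
Prm1: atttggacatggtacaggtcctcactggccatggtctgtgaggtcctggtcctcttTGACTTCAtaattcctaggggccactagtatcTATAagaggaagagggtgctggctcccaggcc
Prm2: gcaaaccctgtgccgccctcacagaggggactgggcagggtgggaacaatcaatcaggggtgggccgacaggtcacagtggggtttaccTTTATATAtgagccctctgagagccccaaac
Prm3: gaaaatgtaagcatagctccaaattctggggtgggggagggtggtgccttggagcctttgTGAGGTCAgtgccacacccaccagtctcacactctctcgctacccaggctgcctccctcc
Tnp1: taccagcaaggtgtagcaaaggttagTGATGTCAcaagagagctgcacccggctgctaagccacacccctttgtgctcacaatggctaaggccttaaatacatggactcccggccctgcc
Tnp2: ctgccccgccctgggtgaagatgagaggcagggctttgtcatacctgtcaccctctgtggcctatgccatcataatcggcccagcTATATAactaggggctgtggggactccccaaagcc
These windows are chr16:10796824-10796943 for Prm1, chr16:10792106-10792225 for Prm2, chr16:10790915-10791034 for Prm3, chr1:73015900-73016019 for Tnp1 and chr16:10788656-10788775 for Tnp2. The gene spans above for Prm1 and Prm2 (9514 and 4755 bases) cover 2 annotated transcripts each. The windows before their RefSeq starts lie inside these spans, and the gaps and the cluster length given above refer to the spans. All 10 genes were matched to a RefSeq promoter. In the 250 bases before the start, TGANNTCA occurred in 3 of the 10 (Prm1, Prm3 and Tnp1) and in 11.93% of 32851 promoters. The full letters TGACGTCA occurred in 0 of the 10 and in 1.546% of all promoters. TATAAA on either strand was found in 2 of the 10 (Prm2 and Hist1h2ba) and in 12.37% of all promoters, and TATA in 7 of the 10 and in 33.99%. A match is a description of the letters, and Prm2 and Tnp2 held no TGANNTCA in this window.

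Prm2, the protamine made as a precursor and cut after it is bound to DNA, differed most between the genotypes. It had 54683, 41374 and 39826 normalized counts in WT, 21430, 38569 and 26112 in Het and 25746, 16738 and 25543 in KO. Every KO animal lay below every WT animal, and the KO mean was 50.06% of the WT mean. On the log2(count + 1) scale, KO minus WT was −1.01 (SE 0.22, unadjusted p = 0.00354, adjusted p = 0.529 by limma). The difference did not pass adjustment over the 14223 genes tested. It was −0.87 without WT 1, −0.81 without KO 2 and −0.66 without both (limma adjusted p = 0.101). Each value rested on at least 17302 reads, so that counting error was at most 0.7602% of the value. The remaining spread mixes animals and library preparation, which cannot be told apart with 1 library per animal.

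Prm1, the protamine found in all mammals, had 84544, 112269 and 104467 normalized counts in WT, 82705, 97133 and 103420 in Het and 87269, 60182 and 93468 in KO. The genotypes overlapped, with WT 1 below KO 1 and KO 3. KO minus WT was −0.34 on the log2 scale (SE 0.20, adjusted p = 0.637 by limma), −0.46 without WT 1 and −0.14 without KO 2. Prm3, the third gene of the protamine cluster, which encodes an acidic protein of elongated spermatids, had 5744, 5258 and 4765 normalized counts in WT, 2439, 4419 and 4255 in Het and 4747, 2251 and 4195 in KO. All Het and KO animals were below all WT animals, but KO 1 was close to the lowest WT animal. The log2 difference between KO and WT of −0.56 (SE 0.30, adjusted p = 0.623 by limma) moved to −0.23 without KO 2.

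Of the transition protein genes, Tnp2 had the larger difference. Tnp2, the transition protein gene at the end of the protamine cluster, had 32383, 26072 and 27139 normalized counts in WT, 15659, 23484 and 21285 in Het and 17677, 12426 and 19613 in KO. All KO and all Het animals lay below all WT animals, and the KO mean was 58.08% of the WT mean. The log2 difference was −0.80 (SE 0.20, unadjusted p = 0.00694, adjusted p = 0.604 by limma), and it was −0.61 without KO 2 and −0.52 without WT 1 and KO 2. Tnp1, the transition protein gene on chromosome 1, had 62238, 69647 and 61857 normalized counts in WT, 59268, 55707 and 62800 in Het and 61377, 34043 and 61048 in KO. KO 1 and KO 3 were just below the lowest WT animal, and KO 2 stood far below. The log2 difference of −0.36 (SE 0.25, adjusted p = 0.643 by limma) moved to −0.08 without KO 2. Tnp1 lies inside 1700027A15Rik on the opposite strand, which had 1320 to 4251 counts, and 40 exonic bases are shared. Whether counting used the strand is not stated.

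**Figure D1:**
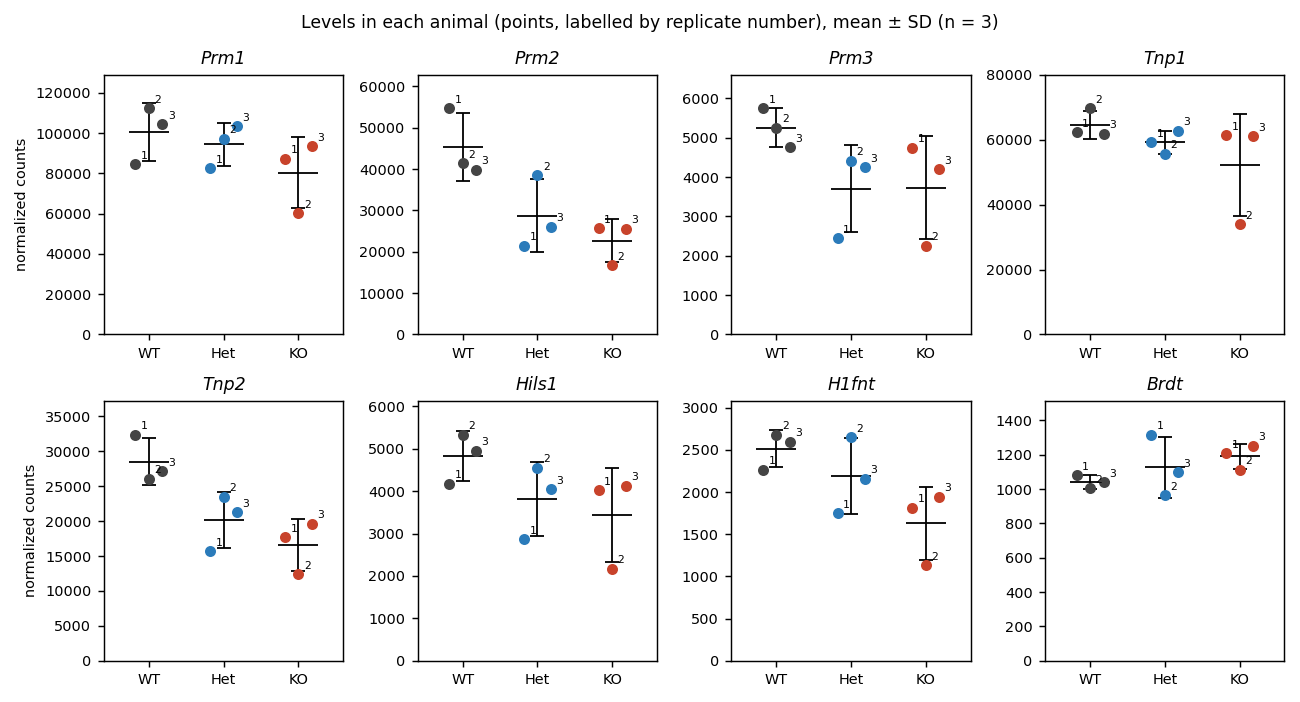
Normalized counts of 8 chromatin genes (vertical axes, linear and starting at 0) in the WT, Het and KO animals, with each point an animal labelled by its replicate number, the long bar the mean and the error bar the SD (n = 3). Prm2 and Tnp2 were lower in every KO than in every WT animal, KO 2 was the lowest KO animal in all 8 panels, and Brdt was highest in Het 1.

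H1fnt and Hils1 are linker histone genes used in spermatids only. H1fnt (chr15:98255986-98257293, minus strand), whose protein sits at the apical pole of the spermatid nucleus, had 2264, 2680 and 2596 normalized counts in WT, 1751, 2651 and 2161 in Het and 1812, 1134 and 1945 in KO. All KO animals were below all WT animals, with a log2 difference of −0.66 (SE 0.24, unadjusted p = 0.0332, adjusted p = 0.610 by limma), and −0.42 without KO 2. Hils1 (chr11:94967593-94968456, plus strand), the spermatid-specific linker histone-like gene, had 4175, 5333 and 4951 normalized counts in WT, 2863, 4557 and 4051 in Het and 4029, 2169 and 4125 in KO. The KO animals were again below the WT animals, but KO 3 was close to WT 1. The log2 difference was −0.54 (SE 0.28, adjusted p = 0.620 by limma), and −0.23 without KO 2. Hils1 lies inside Sgca on the opposite strand, whose level was 32.9 to 67.7 counts.

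The histone genes expressed earlier, in spermatocytes, were near the limit of detection in these libraries, which sample polyadenylated RNA. Whether their few reads reflect low expression was not tested. Hist1h1t (chr13:23695814-23696725, plus strand), the testis H1 variant of meiotic cells, had 2.48, 6.75 and 5.79 normalized counts in WT, 5.67, 5.59 and 6.35 in Het and 9.45, 4.84 and 6.26 in KO, from 2 to 11 reads per library. It reached 10 counts in no library and was not tested. Hist1h2ba (chr13:23933773-23934156, minus strand), the testis variant of H2B, had 19.8, 9.65 and 7.72 normalized counts in WT, 8.50, 6.52 and 7.41 in Het and 10.3, 18.4 and 8.04 in KO. The genotypes overlapped, and KO minus WT was 0.01 on the log2 scale (SE 0.53, adjusted p = 0.995 by limma). With 7 to 19 reads per library, its SE was larger than that of Prm2 (0.22).

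Brdt (chr5:107331159-107387058, plus strand), the reader of acetylated histones that is first expressed in spermatocytes, was slightly higher in the KO animals. It had 1081, 1003 and 1039 normalized counts in WT, 1316, 966 and 1097 in Het and 1208, 1112 and 1252 in KO. The lowest KO animal (1112) was just above the highest WT animal (1081), while Het 1 was the highest and Het 2 the lowest of all 9. The share of all genes that lay higher in every KO animal was not counted. The log2 difference of 0.19 (SE 0.15) had an unadjusted p of 0.235 and an adjusted p of 0.654 by limma.

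Of the 9 chromatin genes tested between KO and WT, 0 were called at an adjusted p under 0.05 with a log2 fold change beyond 1.5 by limma, where 5 of all 14223 genes (0.0352%) were. DESeq2 and edgeR on the recovered reads also called none of them, with an adjusted p of 0.0903 for Prm2 and 0.256 for Tnp2 by DESeq2. At an unadjusted limma p under 0.05, 3 of the 9 (Prm2, Tnp2 and H1fnt) were lower in KO, against 5.03% of all genes. The groups did not overlap, with KO lower, for 6 of the 9 (Prm2, Prm3, Tnp1, Tnp2, Hils1 and H1fnt), against 10.5% of all genes. Genes at a high level tended to lower values in KO. Among 696 genes with a mean of at least 1000 counts, the groups did not overlap, with KO lower, for 28.4%, and the 688 of them that are not among the chromatin genes had a median log2 fold change of −0.25. The 14 other genes with a mean of at least 10000 counts, the level of Prm1, Prm2, Tnp1 and Tnp2, had a median of −0.086, with 9 lower in KO. All 7 protamine, transition protein and linker histone genes lay below both medians, Prm1 (−0.34) and Tnp1 (−0.36) by the least. Scaling by the reads counted per library instead of the authors' size factors raised the median of all genes by 0.198 and gave −0.81 for Prm2, −0.60 for Tnp2 and −0.13 for Prm1.

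**Figure D2:**
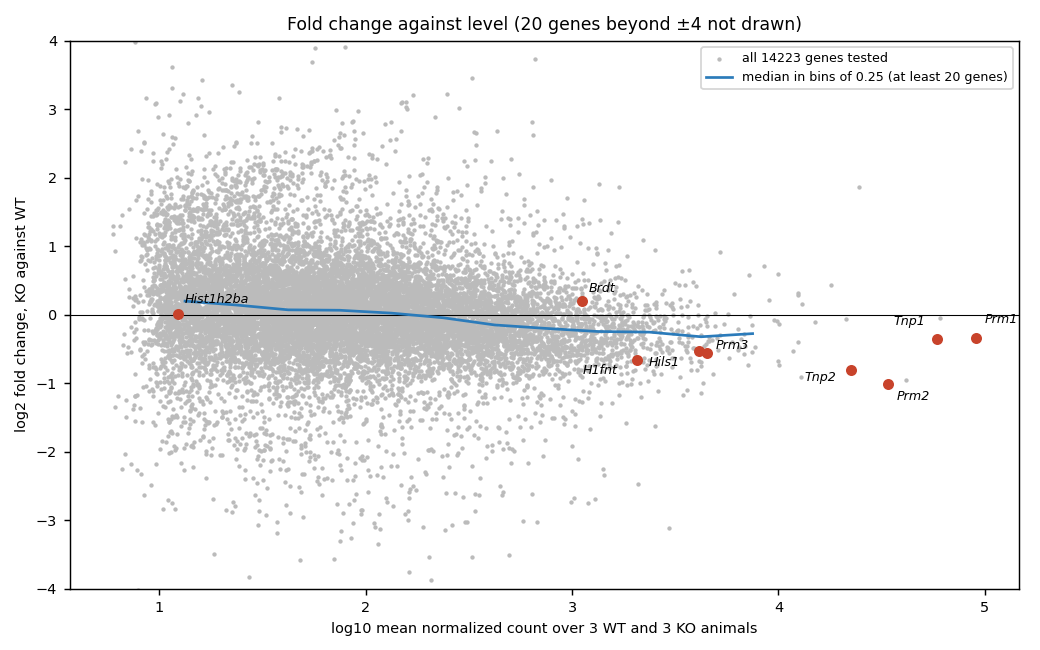
Log2 fold change in KO against WT (vertical axis) against the log10 mean normalized count of the 3 WT and 3 KO animals (horizontal axis) for 14223 genes, with the chromatin genes in red and the median of genes in bins of 0.25 as a blue line. The median went from 0.20 in the lowest bin to −0.28 in the highest, the line ends below the levels of Prm1, Prm2, Tnp1 and Tnp2, and Brdt (0.19) lay above it and H1fnt (−0.66) below it.

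The Het animals also lay below WT for genes of the cluster, with a wide spread among them. Het minus WT on the log2 scale was −0.69 for Prm2 (SE 0.25, unadjusted p = 0.0308, adjusted p = 0.779 by limma). It was −0.52 for Tnp2 (SE 0.18, unadjusted p = 0.0302, adjusted p = 0.779 by limma). Prm3 had −0.55 (SE 0.26, adjusted p = 0.779 by limma). These 3 of 8 genes tested were lower in every Het than in every WT animal, against 6.49% of all genes. At an unadjusted p under 0.05, 2 of the 8 were lower, against 1.89%, and 0 were called, as were 0 of 14216 genes (0.00%) by limma, although 475 of these had an unadjusted p under 0.05. Prm1 (−0.09) and Tnp1 (−0.12) were nearer to WT, and with scaling by the reads counted they turned to 0.070 and 0.032. Without Het 1 the differences were −0.50 for Prm2, −0.35 for Tnp2 and −0.27 for Prm3, each with a limma adjusted p of 0.940, and Hils1 and H1fnt moved from −0.35 and −0.22 to −0.16 and −0.067. Het 1 was the lowest Het animal for 6 of 8 well-measured genes, and Het 2 was close to WT for Prm2, Tnp2 and H1fnt.

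Between KO and Het, the animals of all 8 genes tested overlapped, where 4.90% of all genes were lower in every KO animal. The log2 fold changes ran from −0.44 for H1fnt to 0.09 for Brdt, each with a limma adjusted p of at least 0.973. None of the 8 was lower at an unadjusted p under 0.05, against 1.82% of all genes, and none was called, against 0.0558%.

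**Figure D3:**
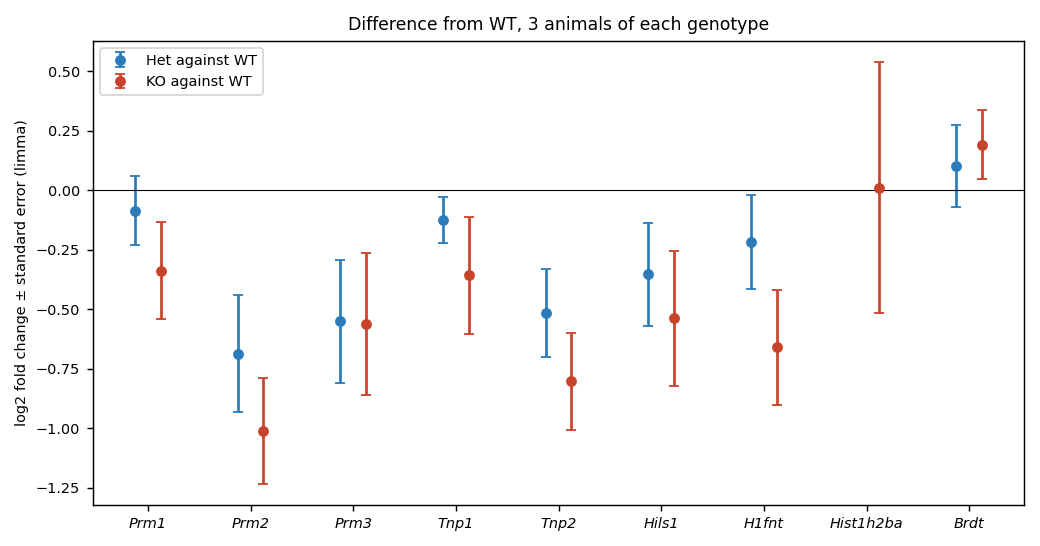
Log2 fold change (vertical axis) of 9 chromatin genes in Het (blue) and KO (red) against WT, with standard errors (SE) from limma (3 animals of each genotype). Prm2 was lowest in both comparisons (−0.69 in Het and −1.01 in KO), Prm1 was nearer to 0 than Prm2 in both, and Hist1h2ba was not tested in Het.

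Ratios between genes of the same library do not depend on how the library is scaled. The ratio of Prm1 to Prm2 counts was 1.546, 2.714 and 2.623 in WT, 3.859, 2.518 and 3.961 in Het and 3.390, 3.595 and 3.659 in KO. All KO animals were above all WT animals, and Het 1 and Het 3 were above the KO animals while Het 2 was with WT. The log2 ratio was 0.67 higher in KO than in WT, with an exact two-sided permutation p of 0.1, which is the smallest that 3 animals against 3 allow (0.144 after adjustment over 13 ratios). WT 1 had by far the lowest ratio, and without it the difference was 0.41. The ratio itself depends on how many 3′ end reads each gene yields, so only its difference between animals is read here.

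The ratio of Tnp1 to Tnp2 showed a like difference. It was 1.922, 2.671 and 2.279 in WT, 3.785, 2.372 and 2.950 in Het and 3.472, 2.740 and 3.113 in KO, so that each KO animal was above each WT animal. The log2 difference of 0.45 was 0.33 to 0.56 when 1 animal was left out (exact permutation p = 0.1 with all 6 animals). Tnp2 itself was at −0.80 in KO against WT. How many of all genes were higher relative to Tnp2 in every KO animal was not counted. Tnp2 to Prm2, the pair from the cluster that was lower in KO, was more even, with 0.5922, 0.6302 and 0.6814 in WT, 0.7307, 0.6089 and 0.8151 in Het and 0.6866, 0.7423 and 0.7678 in KO. The lowest KO animal was just above the highest WT animal, and the log2 difference was 0.21 (exact permutation p = 0.1).

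Tnp1 to Prm1, the pair that was nearest to WT in level, overlapped between the genotypes. The ratio was 0.7362, 0.6204 and 0.5921 in WT, 0.7166, 0.5735 and 0.6072 in Het and 0.7033, 0.5657 and 0.6531 in KO, with the lowest and the highest animal of each group about equally far apart. The log2 difference in KO against WT was −0.02 (exact permutation p = 1), with −0.089 to 0.074 when 1 animal was left out and 0.16 without WT 1 and KO 2. KO 2, in which Prm1 and Tnp1 were each far below the other KO animals, had the lowest ratio of all 9, although only slightly below Het 2.

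**Figure D4:**
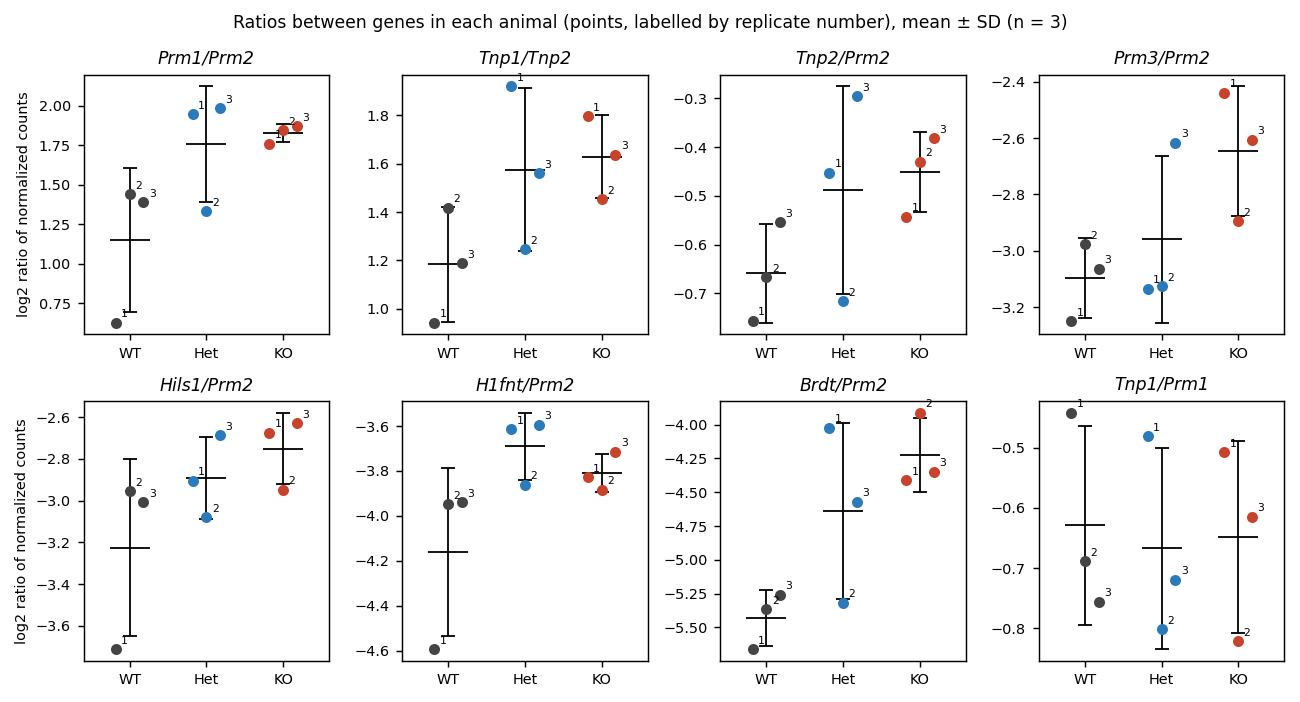
Log2 ratio of normalized counts (vertical axes) for 8 pairs of genes in the WT, Het and KO animals, with each point an animal labelled by its replicate number, the long bar the mean and the error bar the SD (n = 3). Prm1/Prm2 was above every WT animal in the 3 KO animals, WT 1 had the lowest value in 7 of the 8 panels, and Tnp1/Prm1 overlapped between genotypes.

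Relative to Prm2, the ratio of Prm3, Tnp1, Hils1, H1fnt and Brdt was also higher in every KO than in every WT animal. The log2 differences were 0.45 for Prm3, 0.65 for Tnp1, 0.47 for Hils1, 0.35 for H1fnt and 1.20 for Brdt, each with an exact permutation p of 0.1. Without WT 1 the differences of Hils1 and H1fnt moved to 0.23 and 0.14. Hist1h1t to Prm2 also did not overlap (log2 difference 1.44), but rested on at most 11 reads of Hist1h1t, and Hist1h2ba to Prm2 overlapped. Relative to Prm2, 66.9% of 14222 genes were higher in every KO than in every WT animal, so these ratios restate the low Prm2 of the KO animals. Relative to Prm1, 2.13% of 14222 genes were lower in every KO than in every WT animal, and 4 of the 8 tested chromatin genes were among them (Prm2, Tnp2, Hils1 and H1fnt). Of the 13 ratios, 9 did not overlap between KO and WT, 1 between Het and WT (H1fnt to Prm2) and 1 between KO and Het (Hils1 to H1fnt, with a log2 difference of 0.26, exact permutation p = 0.1). For the comparisons with Het, shares of ratios over all genes were not counted.

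Summed over the 10 genes, these transcripts took 5.913%, 6.458% and 6.242% of the reads counted in the WT libraries, 5.346%, 5.932% and 6.207% in Het and 5.537%, 3.971% and 5.774% in KO. The Wilson 95% interval of each share reached at most 0.0255 points to either side and covers counting error only. KO was 1.11 percentage points lower than WT (exact permutation p = 0.1), and KO 2 stood apart with the lowest share. Without KO 2 the difference was −0.549 points, and without 1 of the other KO or WT animals it lay between −1.45 and −0.984 points.

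How much of the KO against WT differences rested on single libraries varied between the genes. Without KO 2, Prm2, Tnp2 and H1fnt kept log2 fold changes of −0.81, −0.61 and −0.42, while Tnp1, Prm1, Prm3 and Hils1 were at −0.08, −0.14, −0.23 and −0.23. Without WT 1, Prm2, Tnp2 and Prm3 were at −0.87, −0.71 and −0.49, nearer to 0 than with all animals. H1fnt, Hils1, Prm1 and Tnp1 were then at −0.73, −0.64, −0.46 and −0.38, farther from 0. Without WT 1 and KO 2 together, the order was Prm2 (−0.66), Tnp2 (−0.52), H1fnt (−0.49), Hils1 (−0.33), Prm1 (−0.26), Prm3 (−0.17), Tnp1 (−0.10) and Brdt (0.27). Their sign held in each case.

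**Figure D5:**
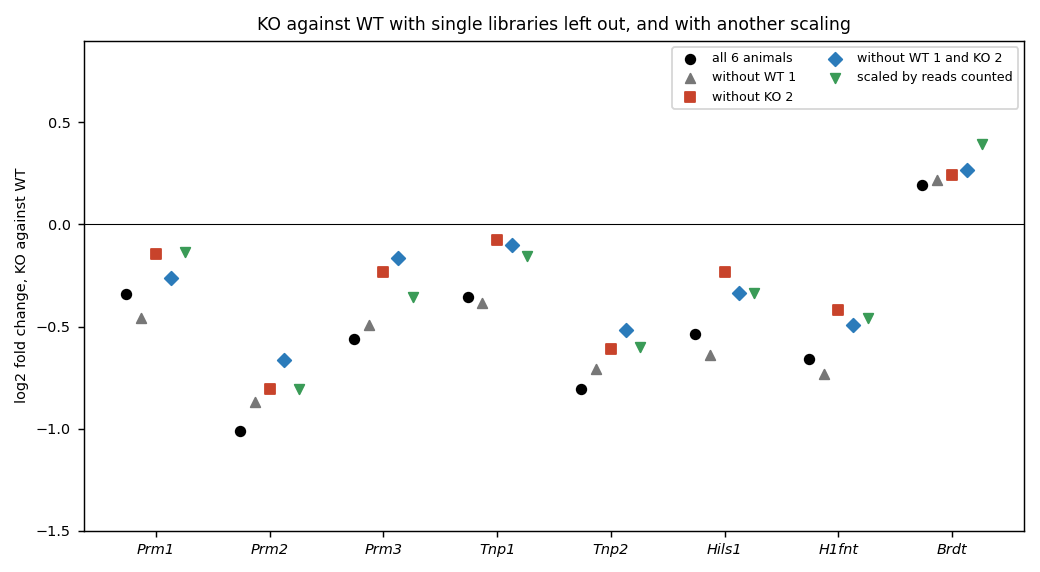
Log2 fold change in KO against WT (vertical axis) of 8 chromatin genes with all 6 animals, without WT 1, without KO 2, without both, and with scaling by the reads counted per library. Prm2 was between −1.01 and −0.66 in these settings, Tnp1 moved from −0.36 to −0.08 without KO 2, and Brdt was above 0 in all of them.

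Markers of other germ cell stages differed between KO and WT in values that did not pass adjustment. Among 7 late spermatid genes that do not encode chromatin proteins, 7 of 7 were lower in KO than in WT (median log2 fold change −0.49). Of the 688 genes outside the chromatin genes with a mean of at least 1000 counts, 76.3% were lower in KO. The summed level of the 7 genes was 33020 to 35400 counts in WT, 24040 to 36640 in Het and 21450 to 26630 in KO. The 7 included Gapdhs, the glycolytic enzyme of sperm (−0.80, SE 0.18, unadjusted p = 0.00352, adjusted p = 0.529 by limma), Odf1 of the outer dense fibers (−0.87, limma adjusted p = 0.610) and the kinase gene Tssk6 (−0.49, limma adjusted p = 0.692). Spem1 was at −0.09, and Akap4 (−1.11, SE 1.84) differed widely between libraries of each genotype. Of 6 round spermatid genes, 4 were lower and 2 higher (median −0.29), with −0.88 for Sun5, −0.60 for Spaca7 and −0.51 for the acrosomal gene Acrv1. Acr was at −0.07, Tex101 at 0.07 and Spaca1 at 0.13. The sum of the 6 genes was 3274 to 4879 counts in WT, 3896 to 4192 in Het and 2959 to 3529 in KO. Of 6 spermatocyte genes tested, all 6 were higher in KO (median 0.68), against 51.4% of all genes. Among them were the synaptonemal complex genes Sycp1 (0.76, unadjusted p = 0.00495, adjusted p = 0.583 by limma), Sycp3 (0.71) and Sycp2 (0.65). The sum over all 7 listed spermatocyte genes, of which 6 were tested, was 5223 to 6544 counts in WT, 5289 to 8158 in Het and 7858 to 8540 in KO. None of these genes was called, and the part of a shift in germ cell stages in the chromatin gene results was not tested.

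Markers of spermatogonia and of cells outside the germ line were also compared, and again none was called. Between KO and WT, the median log2 difference was −0.26 over 5 Leydig cell genes and −0.13 over 4 Sertoli cell genes, with summed levels of 2549 to 4447 and 1637 to 2504 counts in WT and 2282 to 3305 and 1713 to 2489 in KO. Of 4 spermatogonia genes, 2 passed the filter on low counts, and both were higher (Lin28a 2.41, SE 1.12, and Gfra1 0.38). Lin28a lay near the filter level, with 0, 10.6 and 0 counts in WT and 12.9, 10.6 and 9.83 in KO. Zbtb16, which did not pass, had 18.6, 5.79 and 9.66 counts in WT and 7.73, 17.4 and 7.15 in KO. The sum over the 4 genes was 60.8 to 86.7 counts in WT and 81.3 to 90.2 in KO. Erythrocyte genes (4 tested, median −0.08), macrophage genes (1 tested, Csf1r 0.19) and epididymis genes (1 tested, Defb21 −0.87) had summed levels of 853 to 1331, 54.5 to 133 and 0 to 22.4 counts over all 9 libraries.

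Genes for the removal of histones and for the acetyl marks that precede it lay on both sides of 0. Of 32 listed, 30 were tested, 12 lower and 18 higher in KO, with a median log2 fold change of 0.15 against 0.02 over all genes and 0 called. Chd5, a chromatin remodeler needed for the exchange of histones for protamines, had 721, 622 and 809 counts in WT, 124, 642 and 177 in Het and 361, 99.6 and 170 in KO. All KO animals lay below all WT animals (log2 difference −1.96, SE 0.47, unadjusted p = 0.00513, adjusted p = 0.583 by limma), and among Het animals Het 2 was with WT. Het 1, Het 3, KO 2 and KO 3, where Chd5 was lowest, also had low Akap4 (70.9, 106, 105 and 137 counts). WT 1 had low Akap4 too (45.8 counts), but Chd5 at 721. Whether the Chd5 difference came from the genotype or from these libraries was not tested. Brd3, a bromodomain gene, was at −0.58 (limma adjusted p = 0.610) and Epc2, a subunit gene of the TIP60 acetyltransferase complex, was at 0.51 (limma adjusted p = 0.610).

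Other histone and linker histone genes (12 tested of 20 listed) had a median of 0.20 with 4 lower, 8 higher and none called or with an unadjusted limma p under 0.05. The spermatid H2A variant gene H2al2a was at −0.40, the centromeric histone Cenpa at 0.69 and the linker histone H1f0 at 0.31. Transcription regulators of these promoters (9 tested) had a median of −0.04, with Rfx2 at −0.58, Brwd1 at 0.69 and Fhl5, the partner of CREM, at −0.63. Genes that store protamine mRNA or control its translation (12 tested) had a median of 0.05, with Pabpc1 at 0.91, Paip2 at −0.41 and Ybx1 at −0.64, and in KO against WT none of these 6 genes had an unadjusted limma p under 0.05. In KO against Het, 2 of the 9 transcription regulators did, both lower in every KO than in every Het animal, with Sox30 at −0.61 (unadjusted p = 0.0216) and Rfx2 at −0.67 (unadjusted p = 0.0385), each with a limma adjusted p of 0.973. Some genes of these lists were at very different levels between libraries, with low values in libraries of each genotype: Ybx2, which binds stored protamine mRNA, ranged from 11.1 to 6793 counts, and Akap4 from 45.8 to 2573. Akap4 was high in WT 2, WT 3, Het 2 and KO 1, as was the Sertoli cell gene Amhr2 (3.78 to 624 counts over all libraries). Their KO against WT differences were −1.11 (SE 1.84) and −1.43 (SE 2.17). No well-measured chromatin gene ranged so widely, with a highest to lowest quotient over the 9 libraries from 1.363 for Brdt to 3.267 for Prm2.

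Genes beside the cluster on chromosome 16 were at far lower levels, with differences in both directions. Dexi (−0.01), Clec16a (0.33) and Socs1 (1.71) on the side of Tnp2, and Rmi2 (0.58) and Litaf (0.04) on the side of Prm1, had limma adjusted p values of at least 0.628, at levels of 0 to 133 counts.

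The pattern of Prm2 over the 9 libraries was compared with that of 682 genes with a mean of at least 1000 counts, by Pearson's r of log2(count + 1), as a description. The most alike outside the chromatin genes were Hoga1 (0.994), which encodes a mitochondrial aldolase, Ccdc91 (0.982), the testis kinase gene Tssk1 (0.979), the tubulin gene Tubb4b (0.979) and Tmco5 (0.978). Of the chromatin genes Tnp2 was nearest to Prm2 (0.974), ahead of Prm3 (0.853), H1fnt (0.846) and Hils1 (0.801), and Tnp1 (0.622) and Prm1 (0.609) were farther off, with Brdt at −0.62. Hoga1 had 7727, 4870 and 4778 counts in WT, 2445, 4770 and 3195 in Het and 2891, 1920 and 3025 in KO, so that WT 1 was highest and KO 2 lowest, as for Prm2. The 9 points share their library, depth and genotype between genes, and WT 1 and KO 2 stood at the ends of the range.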

How the data were processed

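Testis RNA of 9 animals was sequenced from QuantSeq 3′ libraries. Per the submitters' processing notes and methods, the authors trimmed reads with Trim Galore 0.4.5, mapped them to GRCm38 with HISAT2 2.1, ran StringTie 1.3.3 for assembly and counting, and used DESeq2. The deposited signal values are gene counts that were divided by a size factor, 1 for each library. Dividing by the value of 1 read gave whole reads for 100% of the nonzero values (tolerance 0.001). All chromatin genes were counted on loci of the authors' merged assembly.

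KO and WT, Het and WT, and KO and Het were compared with limma 3.58.1 (eBayes with a trend) in R 4.3.3, on log2(value + 1), over genes that reached 10 in 3 or more of the 6 animals compared, with Benjamini-Hochberg adjustment over all genes. Such fold changes understate those of low genes. Cutoffs (adjusted p under 0.05, log2 fold change beyond 1.5) are those of the methods. On the recovered reads, edgeR 4.0.16 called 5, 0 and 7 genes and DESeq2 1.42.0 called 96, 31 and 38. Ratios were compared with exact two-sided permutation tests (scipy) over animals. The limit of detection was 3 reads (2.58 to 3.71 normalized counts). The functions were tested on simulated data. Alternatives were other tests, pseudocounts, filters and scalings, all 9 libraries in 1 fit, a replicate block and each library left out. Omitting WT 1 and KO 2 together, and leaving libraries out of the share of reads, were chosen after seeing the data.

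The 10 genes, the 13 gene lists and the 13 ratios were chosen with earlier results of these data known. Named besides these were Pfn3, up to 3 genes of each list with the smallest unadjusted p in KO against WT, the 5 genes most like Prm2, and the cluster's neighbours. Chd5, Ybx2, Akap4, Amhr2 and Hoga1 were given library values, and Sox30 was named, after values were seen. The lists were Leydig, Sertoli, spermatogonia, spermatocyte, round spermatid, late spermatid, epididymis, erythrocyte and macrophage markers, other histones, histone removal, transcription regulators and storage of protamine mRNA. H3f3c and Rnf8 of these lists were not analysed here. Promoters were taken from RefSeq (GRCm38.p6) and gene positions from GENCODE M21 (GRCm38). The methods describe biological replicates, and nothing used here says how animals were assigned to libraries.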

Additional observations from a re-analysis of the deposited data

How the results depend on the processing

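In KO against WT, the direction of all 8 well-measured chromatin genes held under each alternative that gave them a value, and none was called in these (for edgeR with RLE factors, only the counts of called genes were computed). Over the alternatives that kept all animals, Prm2 ran from −1.01 to −0.81 (adjusted p 0.0903 to 0.703) and Tnp2 from −0.80 to −0.60 (adjusted p 0.256 to 0.703). The counts of called genes depended on the test. KO against WT gave 96 with DESeq2, 3 with all 9 libraries in 1 fit, 57 without WT 1 and KO 2, and 0 to 49 without 1 animal (49 without WT 1, 11 without KO 1, 1 without KO 3 and 0 without WT 2, WT 3 or KO 2). Het against WT gave 31 with DESeq2, 2 with a pseudocount of 5, 3 without the filter, 1 with TMM factors, 3 with all 9 libraries and 0 to 3 without 1 animal (3 without Het 2). KO against Het gave 5 with edgeR and RLE factors, 38 with DESeq2, 4 with all 9 libraries and 0 to 39 without 1 animal (39 without Het 2). Same-numbered animals correlated between −0.14 and 0.188 in their deviations from the group means, and not every animal correlated best with its own number. The labels do not say whether the numbers mark a pairing, and correlations this weak cannot decide it. With the replicate block, 0 genes were called in KO against WT and 0 in KO against Het, and Prm2 kept −1.01 (adjusted p = 0.703).

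Some values near 0 turned. With scaling by the reads counted, Prm1 (0.070) and Tnp1 (0.032) turned in Het against WT. In KO against Het, Prm3 turned to 0.037 with that scaling, 0.026 with edgeR and 0.0097 with DESeq2. Tnp1/Prm1 turned to 0.16 in KO against WT without WT 1 and KO 2. With 1 animal left out, these log2 differences crossed 0, and the cause was not tested. In KO against WT they were Hist1h2ba (−0.24 to 0.25), Tnp1/Prm1 (−0.089 to 0.074) and Hist1h1t/Hist1h2ba (−0.31 to 0.92). In Het against WT they were Prm1 (−0.20 to 0.0074), Brdt (−0.015 to 0.21), Prm3/Prm2 (−0.034 to 0.23), Tnp1/Prm1 (−0.13 to 0.055) and Hist1h2ba/Prm2 (−0.15 to 0.44). In KO against Het they were Prm3 (−0.29 to 0.32), Tnp1 (−0.38 to 0.049), Hils1 (−0.38 to 0.12), Brdt (−0.015 to 0.21), Prm1/Prm2 (−0.14 to 0.19), Tnp1/Tnp2 (−0.11 to 0.23), Tnp1/Prm1 (−0.051 to 0.11), Tnp2/Prm2 (−0.077 to 0.13), Tnp1/Prm2 (−0.19 to 0.28) and Hist1h1t/Hist1h2ba (−0.73 to 0.083).

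With 3 animals a group, 0.1 is the smallest exact p of a ratio. Few reads limit Hist1h1t and Hist1h2ba (2 to 19 reads), but not the other chromatin genes, whose counting error was at most 3.38%. Whether depth or the sampling of polyadenylated RNA kept these reads few was not tested.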
